A study of Rattus norvegicus with 86 samples.

Results

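The 7 genes described here are genes that astrocytes of the brain express strongly, namely Gfap (ENSRNOG00000002919), Aqp4 (ENSRNOG00000016043), Gja1 (ENSRNOG00000000805), Slc1a2 (ENSRNOG00000005479), Slc1a3 (ENSRNOG00000016163), Glul (ENSRNOG00000049560) and S100b (ENSRNOG00000001295). They were picked by name and Ensembl identifier, and the rule uses no measured value. All 7 identifiers were present among the 17180 genes of the expression table. Each was measured in the nucleus accumbens core, a part of the ventral striatum, in 75 rats of the Heterogeneous Stock (HS).

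Astrocytes are glial cells that take up the transmitter glutamate at synapses, convert it to glutamine, buffer potassium and water, and share small molecules through gap junctions. Gfap encodes an intermediate filament of the astrocyte cytoskeleton and is the classic gene of reactive astrocytes. Aqp4 encodes the water channel of the endfeet that wrap blood vessels, and Gja1 encodes connexin 43, the main astrocytic gap junction protein. Slc1a2 and Slc1a3 encode the glutamate transporters GLT-1 and GLAST, Glul encodes glutamine synthetase, and S100b encodes a calcium-binding protein of glia that is also made by some oligodendrocyte lineage cells.

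HS rats are an outbred population that descends from inbred founder strains, so every rat differs in genotype. No treatment or behavioural test was given to any of them, they were kept in groups, and the labels give no age. RNA came from tissue of both hemispheres dissected from frozen sections, and polyadenylated RNA was sequenced. The labels list 86 samples, of which 11 were marked as removed, and the other 75 are the libraries of the table, 1 per rat.

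The only groups were sex and rat batch. There were 12 rats in batch 2 (2 females), 20 in batch 3 (13 females), 26 in batch 4 (14 females), 16 in batch 6 (8 females) and a single female in batch 5. The labels do not say what a batch is. Rats are named below by their batch and a running number. The values are log2(scaled count + 1), so that 1 unit is a 2-fold difference, and a gene was called where its limma p-value, adjusted over all genes, was under 0.05.

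The total count recovered per library lay between 8455371 and 26145108, with a median of 18280550, and pairs of libraries correlated at 0.912 to 0.981. The shallowest libraries were those of rat 6 of batch 2 and rat 14 of batch 6 (10372222 counts). The columns of the table fall into 3 runs of ascending rat identifiers. Rat batch 2 lay wholly in the first run and rat batches 4, 5 and 6 in the third, while rat batch 3 had 7 libraries in the first, 12 in the second and 1 in the third. What the runs stand for is not stated, and a difference between the early and the late rat batches cannot be told apart from one between runs. In homogenized tissue, fewer astrocytes and less RNA per astrocyte cannot be told apart either.

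All 7 genes were detected in every library. Gfap was the most variable of them. Its level was 8.75 at the lowest (rat 8 of batch 6), 10.21 at the median and 12.08 at the highest (rat 6 of batch 2), which is a 9.99-fold range between rats. Slc1a2 followed, at 8.90 to 10.87 with a median of 10.08, a 3.9-fold range. The remaining members kept to a narrow range. Aqp4 ran from 12.14 to 13.05 with a median of 12.65, a 1.88-fold range, and Gja1 from 12.51 to 13.33 with a median of 12.99, a 1.77-fold range. Slc1a3 had the narrowest range, 1.58-fold, from 13.09 to 13.76 with a median of 13.48. S100b ran from 13.81 to 14.69 with a median of 14.26, and Glul from 13.54 to 14.59 with a median of 14.07. Gene lengths were not used, so these levels do not order the genes among themselves.

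**Figure D1:**
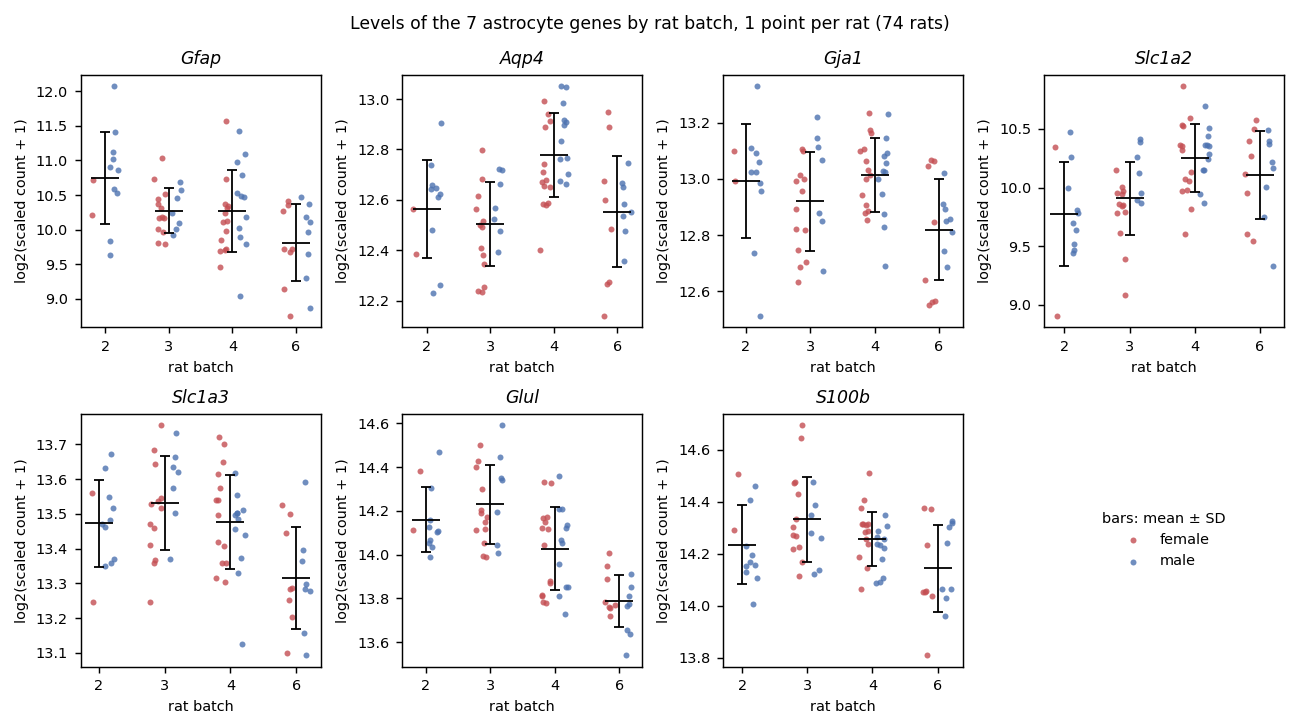
Level of each astrocyte gene, as log2(scaled count + 1) on the vertical axis, by rat batch on the horizontal axis, with 1 point per rat (red, female; blue, male) and black bars for the mean ± SD of the batch; the vertical scale differs between panels. Glul is lowest in rat batch 6 with hardly any overlap with rat batches 2 and 3, Aqp4 is highest in rat batch 4, and the points of Gfap spread over far more log2 units than those of the other genes.

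The spread between rats of one batch and sex was measured as the residual SD after batch and sex means were removed (74 rats, without the single rat of batch 5). It was 0.538 for Gfap, a factor of 1.45, and 95.5% of the 12988 genes with a mean level of at least 5 varied less. Slc1a2 had a residual SD of 0.341, above 82.8% of those genes. The other 5 genes lay below the median of 0.197 over these genes, but spread falls with level and they are abundant. Their residual SDs were 0.178 for Aqp4, 0.170 for Glul, 0.169 for Gja1, 0.142 for S100b and 0.137 for Slc1a3, and each was above the median of the genes within 0.5 log2 units of its own mean level. Aqp4 varied more than 80.0% of the 430 genes of its level, Glul more than 79.2% of 101, Gja1 more than 74.2% of 295, S100b more than 57.6% of 85 and Slc1a3 more than 56.0% of 168. Gfap varied more than 99.7% of 2139 genes of its level and Slc1a2 more than 97.4% of 2281. The smallest recovered count of Gfap was 260, which corresponds to a counting standard error of 0.089 on the log2 scale, and no other member fell below 379 counts. After batch and sex means were removed, the correlation with the log2 total count lay between -0.12 (Slc1a2) and 0.08 (Slc1a3) over the 7 genes. That with the number of genes at 0 in the library lay between -0.12 (Slc1a2) and 0.29 (S100b).

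**Figure D2:**
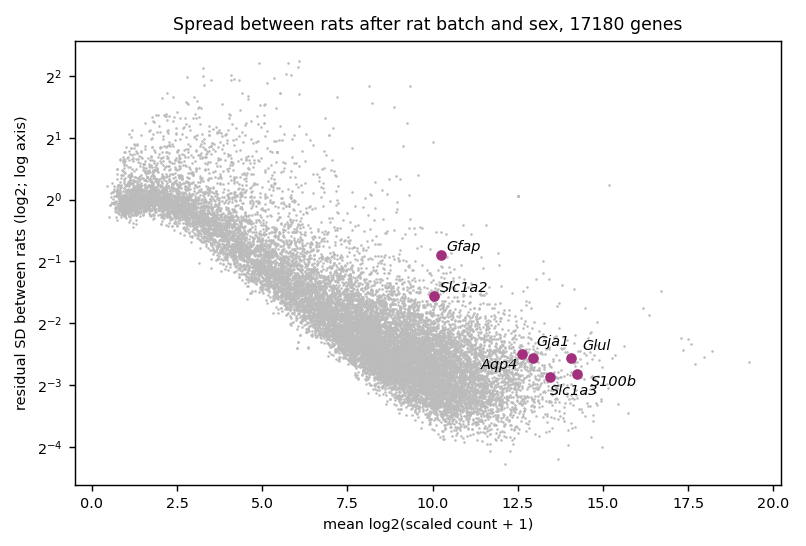
Residual SD between rats after rat batch and sex (vertical, log axis) against the mean level (horizontal, log2(scaled count + 1)) for all 17180 genes (grey) and the 7 astrocyte genes (purple). Gfap at 0.538 and Slc1a2 at 0.341 stand above the other 5, which lie between 0.137 and 0.178.

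The comparison of rat batches asks whether the level of a gene shifted between the batches of animals. All 7 astrocyte genes were called in a moderated F test over rat batches 2, 3, 4 and 6 (limma, with sex as a covariate), but so were 53.5% of all genes tested, so the count says little about these genes. Rat batch took 49.0% of the variance of Glul left after sex, more than in 95.1% of the genes with a mean level of at least 5. The share was 32.4% for Aqp4, 25.3% for Slc1a3, 24.5% for Slc1a2, 21.1% for Gfap and 17.1% for both Gja1 and S100b, against a median of 17.1% over genes. The call of all but Glul was lost with the column run as a covariate, where the adjusted p of the others lay between 0.0775 (Aqp4) and 0.807 (Slc1a2) and that of Glul was 0.0378. That fit called only 169 of all 17180 genes, against 9192 without the run. No member was called with 20 principal components of expression as covariates, which gave adjusted p of 0.561 to 0.862. There 12 of all genes were called, so in both fits most calls over all genes were lost. The call of S100b was lost as well under quantile normalization (adjusted p = 0.198), with voom (adjusted p = 0.251) and without rat batch 3 (adjusted p = 0.0872). Without rat batch 4 the calls of Aqp4 (adjusted p = 0.891), Slc1a2 (0.0526) and Gja1 (0.12) were lost, and without rat batch 6 those of Gfap (0.145), Slc1a3 (0.408), Gja1 (0.273) and S100b (0.327). Over all genes 8025 were called without rat batch 4 and 7509 without rat batch 6.

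The comparison of rat batch 6 with rat batch 4 stays within 1 column run. There, all 7 genes had lower means in rat batch 6, and 4 of 7 were called, whereas 3.87% of all genes were called in either direction. The called genes were Glul, Aqp4, Gja1 and Slc1a3. Of these, Aqp4, Gja1 and Slc1a3 also correlated from rat to rat once batch and sex means were removed (r of 0.53 to 0.64). The calls are therefore not independent of each other. The level of Glul was 13.54 to 14.01 with a median of 13.77 in the 16 rats of batch 6 and 13.73 to 14.36 with a median of 14.06 in the 26 rats of batch 4. All 16 rats of batch 6 lay below the batch 4 median, although the ranges overlapped. The difference was -0.24 ± 0.05 (SE, adjusted p = 0.00697), that is 15.4% lower.

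The water channel gene and the gap junction gene were lower too. Aqp4 was 12.14 to 12.95 with a median of 12.57 in batch 6 and 12.40 to 13.05 with a median of 12.75 in batch 4, and 14 of the 16 rats lay below the batch 4 median. Its difference was -0.23 ± 0.06 (SE, adjusted p = 0.0118), or 14.7% lower. Gja1 was 12.55 to 13.07 with a median of 12.85 in batch 6 and 12.69 to 13.23 with a median of 13.03 in batch 4, a difference of -0.20 ± 0.05 (SE, adjusted p = 0.0218). The transporter gene Slc1a3 was 13.09 to 13.59 with a median of 13.29 against 13.13 to 13.72 with a median of 13.50, a difference of -0.16 ± 0.04 (SE, adjusted p = 0.0222). The groups overlapped for each of these genes, and Slc1a3 was not called under quantile normalization (-0.15, adjusted p = 0.0652) or voom (adjusted p = 0.0656).

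The other 3 genes did not pass between rat batches 6 and 4. Gfap had the widest difference of the 7 but also the widest error, -0.46 ± 0.17 (SE, adjusted p = 0.094). S100b differed by -0.11 ± 0.05 (SE, adjusted p = 0.157) and Slc1a2 by -0.15 ± 0.11 (SE, adjusted p = 0.444). In this comparison the differences of the 7 genes lay between the 1.1 percentile (Gfap) and the 15.5 percentile (S100b) of the genes with a mean level of at least 5, whose median difference was -0.01. Under quantile normalization they lay between the 1.0 percentile (Gfap) and the 29.6 percentile (S100b).

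Markers of other cells in the same comparison could be read for 15 of 65 listed genes, and 14 of the 15 were not called. The differences of 12 of the 15 were below 0, as those of the 7 astrocyte genes were. Mal, a myelin gene, was called, at -0.26 ± 0.08 (SE, adjusted p = 0.0466). Its companion Opalin, also a myelin gene, was 0.15 ± 0.09 with adjusted p = 0.323. The summed scaled counts of these myelin genes, 2 of 10 listed, were 2498 to 6292 in batch 6 and 3474 to 6995 in batch 4. The neuronal enzyme gene Eno2 differed by -0.003 ± 0.030 (adjusted p = 0.969), and the striatal neuropeptide genes Penk and Pdyn by -0.04 ± 0.07 and 0.04 ± 0.05. The widest differences were those of Neurod6, at -0.84 ± 0.58 (adjusted p = 0.445), and the haemoglobin gene Hbb, at -0.51 ± 0.22 (unadjusted p = 0.0265, adjusted p = 0.188). Stmn2 of neurons, Olig2 of oligodendrocyte precursors, Vwf of endothelium and Rgs5 of mural cells differed by -0.07, -0.09, -0.08 and 0.07. The microglial genes P2ry12, C1qa, C1qc and Itgam had differences of -0.11 to -0.22, none called, and their summed scaled counts (4 of 9 listed) were 1381 to 2127 in batch 6 and 1421 to 2335 in batch 4. Of the 15 genes, Neurod6 of cortical neurons was at 0 in 2 of the 74 libraries and the others in none. The part of these cell types in the result was not tested.

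Rat batches 2 and 3 are called early here, from their numbers, and 4 and 6 late. Between the early batches none of the 7 genes was called, against 3.44% of all genes, and none of the 7 had an unadjusted limma p under 0.05 (the voom fit also called none of the 7). The widest difference was that of Gfap, at -0.39 ± 0.20 in rat batch 3 against rat batch 2 (SE, adjusted p = 0.255).

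The glutamate transporter gene Slc1a2 was higher in rat batch 4 than in both early batches. It was 8.90 to 10.48 with a median of 9.74 in rat batch 2, 9.08 to 10.42 with a median of 9.92 in rat batch 3, 9.60 to 10.87 with a median of 10.31 in batch 4 and 9.33 to 10.58 with a median of 10.19 in batch 6. Its medians were higher in the late batches, with overlapping ranges. The difference of rat batch 4 was 0.52 ± 0.12 from rat batch 2 (SE, adjusted p = 0.00056, 1.44-fold) and 0.33 ± 0.10 from rat batch 3 (SE, adjusted p = 0.00487). Rat batch 6 was called against rat batch 2, at 0.37 ± 0.13 (SE, adjusted p = 0.0194), but not against rat batch 3, at 0.18 ± 0.11. With voom the difference from rat batch 3 was 0.27, and its adjusted p, rounded to 0.05, was at the threshold. The call against rat batch 2 was lost when that pair was fitted alone (adjusted p = 0.103). The other transporter gene, Slc1a3, was lower in rat batch 6 alone. It was 13.25 to 13.67 with a median of 13.48 in batch 2 and 13.25 to 13.76 with a median of 13.53 in batch 3, and the difference of rat batch 6 was -0.15 ± 0.05 from rat batch 2 (adjusted p = 0.0194) and -0.22 ± 0.05 from rat batch 3 (SE, adjusted p = 9.15e-05). The first of these was not called under quantile normalization (adjusted p = 0.457), with voom (adjusted p = 0.0984) or without the 2 shallowest libraries (adjusted p = 0.0817), and the second was not called under quantile normalization (adjusted p = 0.0703). In rat batch 4 Slc1a3 differed by 0.01 ± 0.05 from rat batch 2 (SE, adjusted p = 0.937) and by -0.06 ± 0.04 from rat batch 3 (SE, adjusted p = 0.298), called in none of the fits tried. The log2 difference of Slc1a2 from Slc1a3 within a rat was on average -3.70 ± 0.38 and -3.62 ± 0.33 in the early batches 2 and 3, and -3.23 ± 0.25 and -3.21 ± 0.37 in the late batches 4 and 6 (SD, n = 12, 20, 26 and 16). The offset between the genes also holds their unequal lengths, so only its change between batches can be read. Aqp4 was higher in rat batch 4 by 0.25 ± 0.06 over rat batch 2 (SE, adjusted p = 0.00153) and 0.26 ± 0.05 over rat batch 3 (SE, adjusted p = 3.63e-05), with 25 of 26 rats above the batch 3 median, while rat batch 6 differed from rat batches 2 and 3 by 0.02 ± 0.07 and 0.03 ± 0.06, not called.

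Glul and Gfap were lowest in rat batch 6. Glul was 13.99 to 14.47 with a median of 14.11 in batch 2 and 13.99 to 14.59 with a median of 14.19 in batch 3, and 15 of the 16 rats of batch 6 lay below the lowest rat of either early batch. The difference was -0.38 ± 0.07 from rat batch 2 (SE, adjusted p = 6.49e-06) and -0.44 ± 0.06 from rat batch 3 (SE, adjusted p = 1.95e-09), the latter being 26.3% lower. Under quantile normalization both were -0.28 and still called, and the 253 genes with a mean level of at least 13, Glul among them, had a median difference from rat batch 3 of -0.15 on the deposited scale and 0.02 after that normalization. Rat batch 4 was between them, at -0.20 ± 0.05 from rat batch 3 (SE, adjusted p = 0.000806), and under quantile normalization that step shrank to -0.05 and was not called.

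Gfap was 9.63 to 12.08 with a median of 10.79 in rat batch 2, 9.79 to 11.03 with a median of 10.21 in rat batch 3, 9.04 to 11.58 with a median of 10.21 in batch 4 and 8.75 to 10.47 with a median of 9.85 in batch 6. No rat of batch 6 reached the median of rat batch 2, and 4 of its 16 rats lay below the lowest rat there. The difference of rat batch 6 from rat batch 2 was -0.88 ± 0.20 (SE, adjusted p = 0.000451), or 45.6% lower. That from rat batch 3 was -0.49 ± 0.18 (SE, adjusted p = 0.0195), and it was not called with voom (adjusted p = 0.0766). The highest and one of the lowest Gfap values belonged to the shallowest libraries, with 12.08 in rat 6 of batch 2 and 8.86 in rat 14 of batch 6. Without them Gfap was still called in the F test, with adjusted p = 0.0156 in place of 0.00176.

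S100b was called in 1 of the 6 pairs of batches, the fewest of the 7 genes. It was 14.12 to 14.69 with a median of 14.29 in batch 3 and 13.81 to 14.38 with a median of 14.07 in batch 6, with overlapping ranges. This difference, -0.18 ± 0.05 (SE, adjusted p = 0.00154), was the only one of S100b that was called, and it was 0.015 and not called after quantile normalization or, at adjusted p = 0.0917, with voom. S100b too is among the 253 genes whose median shifted between these scales. Gja1 was lower in rat batch 6 than in rat batch 2 by a small margin, -0.17 ± 0.07 (SE, adjusted p = 0.0398), and was called in only 4 of the 9 alternatives. The adjusted p was 0.109 without the 2 shallowest libraries, 0.366 under quantile normalization, 0.124 with voom, 0.0553 with the log2 total count as a covariate and 0.0955 with the pair fitted alone.

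Counted over pairs of batches, 2 of 7 genes were called between rat batches 4 and 2 (26.9% of all genes), 5 of 7 between rat batches 6 and 2 (34.8%), 3 of 7 between rat batches 4 and 3 (39.8%) and 4 of 7 between rat batches 6 and 3 (43.1%). These comparisons cross column runs, and in each of them the background of called genes was high. The pairs share batches and are not independent of each other. Markers of other cells were called there too. Of the 15 that could be read, 8 were called between rat batches 6 and 2 (6 lower, 2 higher), 11 between rat batches 6 and 3 (10 lower, 1 higher) and 5 in each comparison of rat batch 4 with an early batch. In rat batch 6 against rat batch 3, Penk (-0.33), Pdyn (-0.29), Eno2 (-0.15), C1qa (-0.36), C1qc (-0.34), Vwf (-0.18), Hbb (-0.71), Neurod6 (-1.54) and Olig2 (-0.28) were lower, and of the myelin genes Mal was lower (-0.20) and Opalin higher (0.28). In rat batch 6 against rat batch 2, Neurod6 (-3.01), Hbb (-0.68), Olig2 (-0.44), Stmn2 (-0.19), C1qa (-0.28) and C1qc (-0.24) were lower, and Rgs5 (0.37) and Opalin (0.39) higher, while Mal (-0.15) and the microglial genes P2ry12 (0.25) and Itgam (-0.24) were not called. Their part in the differences of the 7 genes was not tested. Inside rat batch 3, its 12 libraries in the second run were set against its 7 in the first, a comparison added after the data were seen. Gja1 alone of the 7 was called (11.1% of all genes were), at 12.63 to 13.22 with a median of 12.82 in the second run and 12.89 to 13.15 with a median of 13.01 in the first. The difference was -0.21 ± 0.06 (SE, adjusted p = 0.0293, limma). The next widest was that of S100b, at 0.18 ± 0.07 with adjusted p = 0.095.

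**Figure D3:**
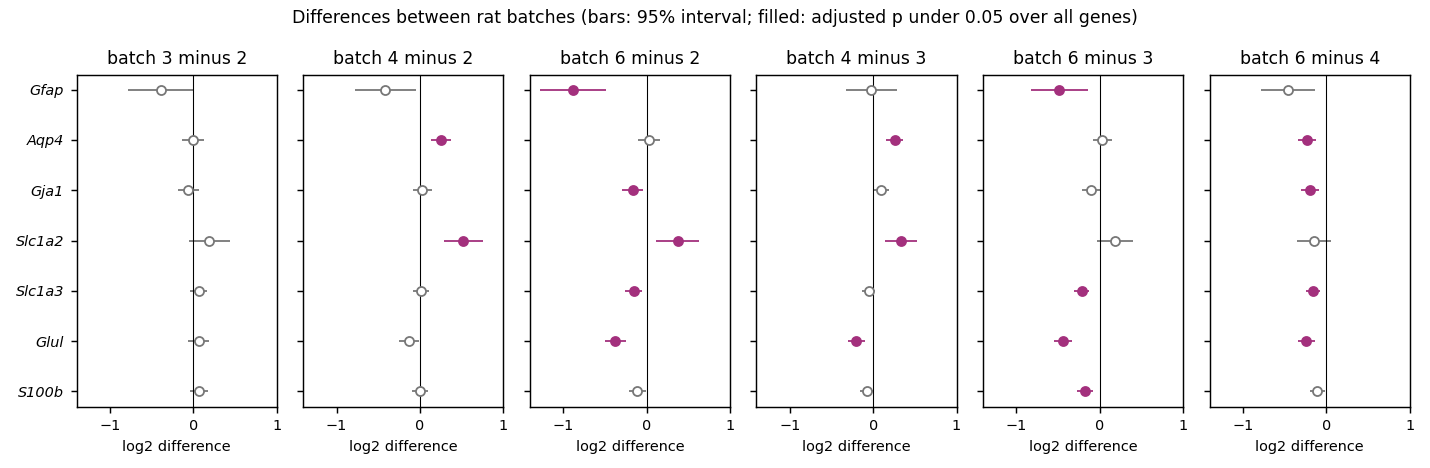
Difference of each astrocyte gene between pairs of rat batches on the log2 scale (horizontal), 1 panel per pair, with bars for the 95% interval and filled purple points where the limma p adjusted over all genes was under 0.05. In the last panel, rat batch 6 minus rat batch 4, all 7 points lie below 0 and 4 are filled.

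The single rat of batch 5 had 9.95 for Gfap, 12.68 for Aqp4, 13.04 for Gja1, 10.58 for Slc1a2, 13.67 for Slc1a3, 14.45 for Glul and 14.52 for S100b. It entered no test. Its Glul value lay above every rat of batches 4 and 6, and its S100b value above every rat of batches 2, 4 and 6.

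Females and males did not differ detectably in any of the 7 genes. Aqp4 came nearest, at 12.57 ± 0.23 in females and 12.67 ± 0.20 in males (SD, n = 37 each), a difference of 0.10 ± 0.04 with rat batch as a covariate (SE, unadjusted p = 0.0174, adjusted p = 0.629, limma). Gfap was 10.13 ± 0.51 in females and 10.37 ± 0.66 in males, a difference of 0.15 with an interval of -0.09 to 0.40 once rat batch was taken into account. For Slc1a3, Glul and Gja1 the interval lay within -0.09 to 0.11, and for S100b it was -0.12 to 0.01. Slc1a2 had an interval of -0.03 to 0.28. Thus 0 of 7 genes were called, as against 0.0873% of all genes (15 genes), 1 of the 7 had an unadjusted p under 0.05, and voom also called 0 of the 7. The interaction of sex and rat batch, tested over rat batches 3, 4 and 6, was called for 0 of 7 and for 0% of all genes (506 genes had an unadjusted p under 0.05), and voom likewise called 0 of the 7.

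To ask which astrocyte genes rise and fall together from rat to rat, all 21 pairs were compared after batch and sex means were removed. A pair counted as called where each gene was called in the limma fit on the other, with p adjusted over all genes. By this rule 7 of 21 pairs were called, and 20 of 21 correlations were positive, with a median Pearson r of 0.26. As a background, the share of all genes called in the fit on a member was 4.58% for Gfap, 6.9% for Aqp4, 2.05% for Gja1, 20.4% for Slc1a2, 8.46% for Slc1a3, 0.623% for Glul and 16.7% for S100b. The p-values of r and rho below come from two-sided permutation tests with 100000 permutations of rats within rat batch, whose smallest possible value is 1e-05.

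The water channel, the gap junction gene and the transporter gene Slc1a3 moved together most closely. Aqp4 and Gja1 had r = 0.64 (permutation p = 1e-05) and rho = 0.61 (permutation p = 1e-05), and the larger of the adjusted limma p-values was 1.96e-05. Their r was 0.71, 0.53, 0.55 and 0.83 in rat batches 2, 3, 4 and 6, and it was 0.60 without the 2 rats farthest from the median of Aqp4. Each was the second most correlated gene of the other among the genes with a mean level of at least 5. This pair was thus positive in every rat batch.

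Slc1a3 and Gja1 had r = 0.54 and rho = 0.51 (permutation p = 1e-05 for both, adjusted p = 0.00112). Within batches r was 0.46, 0.40, 0.63 and 0.68 in rat batches 2, 3, 4 and 6, and it was 0.48 without the 2 rats farthest from the median of Slc1a3. Aqp4 and Slc1a3 had r = 0.53 (permutation p = 2e-05) and rho = 0.55 (permutation p = 1e-05), with an adjusted p of 0.00096. Their r within batches was 0.58, 0.39, 0.55 and 0.68, and 0.50 without the 2 rats farthest from the median of Aqp4. All 3 pairs kept their call when the 2 shallowest libraries were left out, and r did not fall below 0.39 under any alternative tried.

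Aqp4 also moved with Gfap and with Slc1a2, which were not called with each other. Gfap and Aqp4 had r = 0.41 (permutation p = 0.00032) and rho = 0.35 (permutation p = 0.0033), with an adjusted p of 0.0172. Within batches r was 0.38, 0.33, 0.34 and 0.62 in rat batches 2, 3, 4 and 6, and 0.38 without the 2 rats farthest from the median of Gfap. Without the 2 shallowest libraries r was 0.40 and the adjusted p 0.0531, so the call was lost.

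Aqp4 and Slc1a2 had r = 0.41 (permutation p = 0.00065) and rho = 0.44 (permutation p = 0.00021), with an adjusted p of 0.014. Their r was 0.62, 0.05, 0.37 and 0.53 in rat batches 2, 3, 4 and 6, so it was near 0 in rat batch 3, and r was 0.40 without the 2 rats farthest from the median of Aqp4. Gfap and Slc1a2, by contrast, had r = 0.07 (permutation p = 0.59) and rho = 0.11 (permutation p = 0.37), with an interval of r from -0.17 to 0.30. Its r was -0.01, 0.05, -0.10 and 0.44 in rat batches 2, 3, 4 and 6, and r was 0.06 without the 2 rats farthest from the median of Gfap.

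The transporter genes Slc1a2 and Slc1a3 were tied more loosely, with r = 0.35 (permutation p = 0.0026), rho = 0.39 (permutation p = 0.00093) and an adjusted p of 0.0345. Within batches r was 0.61, -0.15, 0.58 and 0.21 in rat batches 2, 3, 4 and 6, so the relation did not hold in rat batch 3, and it was 0.44 without the 2 rats farthest from the median of Slc1a2. With no covariates r was 0.20 and the pair was not called (adjusted p = 0.233). Slc1a3 and S100b passed narrowly, with r = 0.34 (permutation p = 0.004), rho = 0.32 (permutation p = 0.0069) and an adjusted p of 0.0496. Their r was -0.01, 0.51, 0.36 and 0.46 in the batches in the same order, so it did not hold in rat batch 2, and it was 0.35 without the 2 rats farthest from the median of Slc1a3. The pair was not called without the 2 shallowest libraries (adjusted p = 0.0711), with a pseudocount of 8 (adjusted p = 0.0501) or with no intensity trend (adjusted p = 0.054).

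Glul was in no called pair once batch and sex means were removed. With no covariates it was called with Slc1a3 (r = 0.53, adjusted p = 0.000132) and with S100b (r = 0.38, adjusted p = 0.00571). Within batch and sex its strongest partner was Slc1a3, at r = 0.32 (permutation p = 0.0053) and rho = 0.34 (permutation p = 0.0038) with an adjusted p of 0.2. The r of that pair was 0.07, 0.51, 0.26 and 0.41 in rat batches 2, 3, 4 and 6, and 0.37 without the 2 rats farthest from the median of Slc1a3. Gfap and Glul, the filament gene and the glutamine synthetase gene, had r = 0.03 (permutation p = 0.82) and rho = -0.04 (permutation p = 0.71), with r of -0.25, -0.20, 0.20 and 0.17 within rat batches 2, 3, 4 and 6 and -0.04 without the 2 rats farthest from the median of Gfap. The only negative pair, Slc1a2 and S100b, had r = -0.10 (permutation p = 0.42) and rho = -0.02 (permutation p = 0.86), with an interval from -0.33 to 0.14. Its r was -0.46, 0.18, -0.18 and 0.03 in rat batches 2, 3, 4 and 6, and -0.06 without the 2 rats farthest from the median of Slc1a2.

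**Figure D4:**
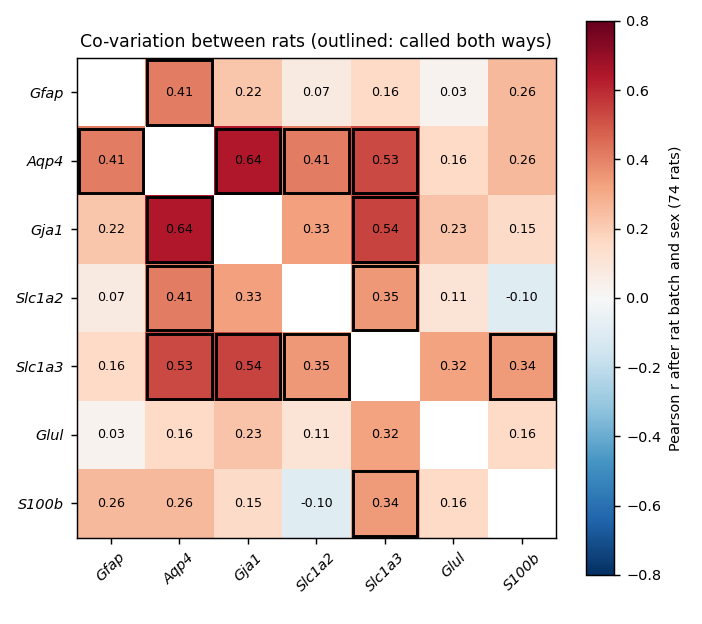
Pearson r between the 7 astrocyte genes over 74 rats after rat batch and sex means were removed (colour and printed value), with the 7 called pairs outlined. Aqp4, Gja1 and Slc1a3 form the darkest block at 0.53 to 0.64, and the row of Glul holds no outlined pair.

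**Figure D5:**
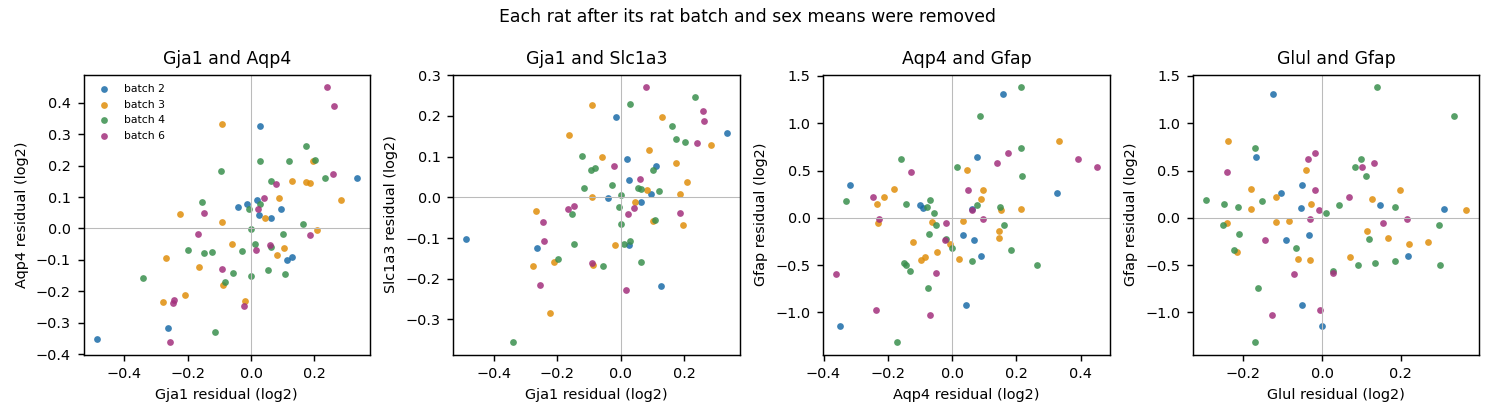
Residual level of pairs of astrocyte genes after rat batch and sex means were removed, 1 point per rat, coloured by rat batch, with both axes in log2 units. Gja1 rises with Aqp4 (r = 0.64) and with Slc1a3 (r = 0.54) in every colour, Gfap rises with Aqp4 (r = 0.41), and Gfap and Glul show hardly any slope (r = 0.03).

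Because Gja1 and Slc1a3 moved together and Gfap was called with neither of them, the 250 bases before their start sites are shown for comparison, as RefSeq gives them on build GRCr8, 5′ to 3′ on the strand of the gene. The windows are chr20:36302314-36302563 (plus strand) for Gja1, chr2:59557809-59558058 (minus strand, the first of 3 listed starts) for Slc1a3 and chr10:88361662-88361911 (minus strand) for Gfap. Capitals mark matches to any of 7 motifs searched on both strands, which were the nuclear factor I site written as TTGGC, the STAT site TTCNNNGAA, the SOX core with the letters ACAAT, the E-box motif CANNTG, the classic box with the letters TATAAA found near some starts, the site of Sp factors with the letters GGGCGG, called the GC box, and the AP-1 site with the letters TGANTCA.
Gja1: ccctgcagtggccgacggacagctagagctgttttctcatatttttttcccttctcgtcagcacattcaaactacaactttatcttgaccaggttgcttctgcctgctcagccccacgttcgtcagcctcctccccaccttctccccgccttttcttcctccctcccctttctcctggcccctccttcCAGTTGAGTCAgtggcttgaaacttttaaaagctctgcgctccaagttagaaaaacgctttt
Slc1a3: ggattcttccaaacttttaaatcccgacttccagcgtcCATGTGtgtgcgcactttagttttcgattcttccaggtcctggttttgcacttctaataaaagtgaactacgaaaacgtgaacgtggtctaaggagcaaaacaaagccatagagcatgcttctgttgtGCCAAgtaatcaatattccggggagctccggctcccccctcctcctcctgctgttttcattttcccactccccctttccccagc
Gfap: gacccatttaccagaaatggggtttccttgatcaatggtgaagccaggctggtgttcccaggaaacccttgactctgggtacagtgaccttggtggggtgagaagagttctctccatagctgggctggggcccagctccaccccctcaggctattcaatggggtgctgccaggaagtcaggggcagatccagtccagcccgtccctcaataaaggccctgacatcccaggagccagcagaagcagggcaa

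The window of Gja1 held an E-box at 62 bases and an AP-1 match at 58 bases before the start, which overlap. That of Slc1a3 held an E-box at 212 bases and a nuclear factor I match at 84 bases before the start, and that of Gfap held none of the 7 motifs. All 7 genes were found in the RefSeq table, with 12 starts, and the search there covered 50 further bases after the start. At their first listed starts, 5 of 7 genes had an E-box, as did 72.1% of the 33469 promoters in the table. The GC box was in 3 of 7 (33.1% of promoters), the nuclear factor I motif in 2 of 7 (45.8%), and the SOX and AP-1 motifs in 1 of 7 each (33.7% and 7.33%). The STAT motif and the classic TATAAA box were in none (8.87% and 14.2%). A match is a run of letters and no evidence of binding.

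For genes beyond the 7, a symbol could be paired with an identifier for 32 of 132 listed genes, so the lists are covered only in part. Among 25 other astrocyte genes, 5 were paired. Mlc1, which encodes a membrane protein of perivascular astrocyte endfeet, was 12.40 ± 0.21, 12.45 ± 0.14, 12.25 ± 0.16 and 12.07 ± 0.18 in rat batches 2, 3, 4 and 6 (SD), and was called over batches (adjusted p = 6.39e-08) and between rat batches 6 and 4 (-0.19 ± 0.05, SE, adjusted p = 0.0273). The other 4 were not called between rat batches 6 and 4, at -0.08 for Aldh1l1, -0.15 for Cst3, -0.12 for Ntsr2 and -0.09 for F3 (adjusted p of 0.185 to 0.564). The r of Mlc1 with S100b was 0.53, with Gfap 0.51 and with Slc1a3 0.49, all 3 called. Ntsr2, Cst3 and Aldh1l1 were also called over batches (adjusted p of 1.02e-05, 1.38e-05 and 0.0203), and each had its lowest mean in rat batch 6. F3, the tissue factor gene, was not (adjusted p = 0.472), and it was called with Slc1a3 (r = 0.54) and Aqp4 (r = 0.35). Aldh1l1, a folate enzyme gene used as a general astrocyte marker, was called with Slc1a2 alone (r = 0.38). Its mean r with the 7 genes was 0.14. That mean was lower for Cst3 (0.04) and Ntsr2 (0.03) and higher for Mlc1 (0.33) and F3 (0.32). Cst3 was called with S100b (r = 0.52) and, with a negative sign, with Slc1a2 (r = -0.38). Ntsr2 was called with S100b alone (r = 0.42).

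Of 13 genes of reactive astrocytes, 5 were paired, and 2 of these were called with Gfap. The intermediate filament genes Vim and Synm were called with Gfap, at r = 0.57 and 0.37, and with Aqp4, at r = 0.36 and 0.40. Lcn2, a secreted lipid carrier that marks inflamed astrocytes, was at 0 in 11 of the 74 libraries and reached 4.39 at most, with r = -0.13 to Gfap. Aspg and Steap4 were low too, at means of 2.06 and 4.02, and neither was called with any of the 7. Only Vim of the 5 was called over batches (adjusted p = 0.0493).

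In the glutamate and glutamine cycle, 4 of 12 listed genes were paired. Glud1, the mitochondrial glutamate dehydrogenase gene, was called with Aqp4 (r = 0.51), S100b (r = 0.48), Gja1 (r = 0.41) and Slc1a3 (r = 0.39). Slc38a1, a glutamine transporter gene of neurons, was called with Slc1a2 alone, at r = 0.68, and was 9.99 ± 0.12 in rat batch 4 against 9.60 ± 0.33 in rat batch 2 (SD), a called difference of 0.41 ± 0.08 (SE, adjusted p = 3.91e-05). Slc1a1, the neuronal glutamate transporter gene, was called with none and had a mean r of -0.17. Gja4, a vascular connexin gene and the only paired one of 9 gap junction genes, was called with none, and S100a16 was called with S100b (r = 0.58).

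Genes of other cells were read in the same way. The mean r over the 7 genes was -0.18 for Penk, -0.17 for Eno2 and -0.16 for Pdyn, but 0.09 for the neuronal gene Stmn2. Penk was called with Slc1a2 (r = -0.40) and Slc1a3 (r = -0.36), and Pdyn with Gfap (r = -0.39). For the myelin genes Mal and Opalin the mean r was 0.08 and 0.05, and neither was called with any member. Among 4 microglial genes P2ry12 was called with Aqp4 (r = 0.38) and C1qa with S100b (r = 0.39). Rgs5, a gene of mural cells, was called with Slc1a2 (r = 0.45). Neurod6 varied widely, from 0 to 8.98, with a mean of 5.31 ± 2.59 in batch 2 and 2.32 ± 0.90 in batch 6 (SD), the batches where Gfap was highest and lowest. Its r with Gfap within batch and sex was 0.22, not called, and its part in the batch difference of Gfap was not tested.

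The genes whose pattern was most like that of each member were ranked by r over the 74 rats, as a description. C1r, a complement protease gene, came first for Gfap (r = 0.66), and Gatm, which encodes a creatine synthesis enzyme, came first for Gja1 (r = 0.69) and had the highest mean r over the 7 genes (0.46). Suclg2, a subunit gene of succinyl-CoA ligase, had a mean r of 0.41. ENSRNOG00000004613, which the sources used here do not pair with a symbol, was second by that mean (0.43) and among the first 3 for both Aqp4 (r = 0.63) and Slc1a3 (r = 0.71). The first gene for Slc1a2, ENSRNOG00000013281, reached r = 0.82, the highest r with a member among the genes with a mean level of at least 5. For Glul, S100b, Slc1a2 and Slc1a3 none of the first 3 genes was paired with a symbol.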

How the data were processed

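RNA-Seq was measured in the nucleus accumbens core of HS rats. According to the methods, the authors trimmed the reads, estimated counts per gene against the Ensembl rat transcriptome, adjusted them to the upper quartile and dropped genes with few reads, and the submitters' processing notes name cutadapt, RSEM, DESeq2 and Rnor_6.0. For 17180 genes in 75 libraries, the deposited values are the log2 of the scaled count after 1 was added. They carry no strand information, so reads of overlapping genes cannot be told apart.

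Since the scaled counts were whole numbers (to within 0.0004%), the factor of each library was found by search (0.708 to 2.183) and gave back counts, which were used for depth and for voom. The search assumed that each factor lies between 0.55 and 2.5, and all totals, smallest counts and counting errors rest on that. Intervals and standard errors from counts cover counting error only.

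Differences were fitted with limma 3.58.1 in R 4.3.3 (lmFit, eBayes with an intensity trend) on the 74 libraries of rat batches 2, 3, 4 and 6, with Benjamini-Hochberg adjustment over all genes and a threshold of 0.05. Correlations were computed in Python 3.11.15 with numpy, scipy and pandas. In a test on simulated data with 200 genes changed among 17180, the rat batch fit called all 200 and 11 others. Recovery by size of difference or by spread between rats was not tested. Alternatives were a pseudocount of 8, a filter at a mean of 3, quantile normalization, other variance models, voom, further covariates and the omission of libraries or batches.

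The rule for the 7 genes uses no measured value, but the 7, the lists and the tests were chosen with earlier results of these data known. The genes named are all 7, up to 5 of each list by the batch test and up to 3 by mean correlation, the 3 most correlated with each member and the 10 by mean correlation, of which only those with a symbol and 2 others are named. Where the text names a further paired list gene, it was chosen after its values were seen. Some genes that this rule takes in are not reported here. The table holds identifiers only. The symbols of the 7 came with the list of identifiers, and those of 32 other genes from the study's supplementary tables of regulated genes, a partial source, so that no statement is made on a whole list. Labels give 1 library per rat, and p-values measure the spread between rats.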

Additional observations from a re-analysis of the deposited data

How the results depend on the processing

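No paired analysis was possible because rats in different batches share no number in the labels. All 7 genes were called between rat batches, as were 9192 of all 17180 genes. With the column run as a covariate the count was 1 (169 of all genes), with 20 principal components 0 (12). Without rat batch 4 it was 4 (8025 of all genes) and without rat batch 6 it was 3 (7509). It was 6, without S100b, under quantile normalization (9215 of all genes), with voom (8716) and without rat batch 3 (5723). Over 42 comparisons of a gene and a pair of batches, 18 were called, and under the alternatives the count was 13 to 18. The counts under the alternatives include gained calls that were not among the 18. Gja1 between rat batches 4 and 3 was gained under quantile normalization (0.18, adjusted limma p = 0.00427) and with voom (0.15, adjusted p = 0.0135). The difference of S100b between rat batches 6 and 3 reversed under quantile normalization to 0.015. No sex difference or interaction was called for the 7 genes under any alternative run. The 7 called pairs of genes became 6 to 9 over all 74 rats and 5 without the 2 shallowest libraries. In rat batches 2, 3, 4 and 6 alone, 0 pairs were called, with fewer rats in each fit. Within batches the correlation of Slc1a2 and Slc1a3 reversed to -0.15 in rat batch 3 and that of Slc1a3 and S100b to -0.01 in rat batch 2. The median residual SD of the 7 genes was 0.17 to 0.179. Where no value shows it, the cause was not tested. The smallest recovered count of these genes in a library was 260, and some calls were lost without the 2 shallowest libraries.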

Other observations

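In 28 checks of a gene in rats of 1 batch and sex, over groups of 7 to 10 rats, 0 had a highest or lowest rat whose gap to the next, relative to the range of the group, passed Dixon's critical value, where chance gives about 1 in 20. A rat can be the highest of its group without passing it. In rat 6 of batch 2, the shallowest library, Gja1 was 13.33 against 12.51 to 13.11 in the 11 other rats of that batch, and Gfap was 12.08 against 9.63 to 11.41, while Aqp4, Slc1a2, Slc1a3, S100b and Glul lay within the range of the others.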
